A study of Rattus norvegicus with 42 samples.

Results

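Antimicrobial and acute-phase proteins were followed here through 10 genes: Lcn2, Cd177, S100a8, S100a9, Camp, Lyz2, Hp, Lbp, Cd14 and Pigr. They were taken by symbol from the 2 tables of read counts, so no measured value chose them. Each table holds 30045 gene symbols, 30044 of them shared, and all 10 genes stand in both. All 10 also passed the filter on low counts, which left 15234 genes at 3 months and 15276 at 9 months.

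The lungs came from 42 male Fischer 344 rats (F344/DuCrl), an inbred strain, bought at 3 months of age. Each rat ate a high-fat diet (HFD, 60% of its energy as fat) or a regular diet (RD, 18%), beginning 2 weeks before exposure and lasting to the end. Exposure was whole-body inhalation of crystalline silica at 15 mg/m3 for 6 hours a day on 5 days, or of air. Lungs were sampled 3 or 9 months after exposure, from different rats. At 3 months there were 5 rats on HFD with silica, 5 on HFD in air, 5 on RD with silica and 4 on RD in air. At 9 months these groups held 6, 6, 5 and 6 rats. The series asks what a high-fat diet does to the response of the lung to silica, a mineral dust that persists in the lung and causes silicosis.

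A piece of lung from each rat gave 1 library of total RNA depleted of ribosomal RNA, with 5143424 to 8259635 counts at 3 months and 3078216 to 8319382 at 9 months. Levels are given as CPM, a gene's counts relative to the size of its library after TMM scaling, with the SD between rats. The tissue label was met by its markers: 9 of 9 alveolar type 2 cell genes had counts in every group, with a summed mean of 17456 to 34310 CPM. Ribosomal RNA (Rnr1 and Rnr2) took 0.957% to 1.26% of counts by group at 3 months, where no comparison of groups passed (exact permutation test, two-sided, adjusted p of 0.286 to 0.302). At 9 months it took 7.66% on HFD with silica, 6.21% on HFD in air, 3.67% on RD with silica and 1.22% on RD in air, and all 4 comparisons of groups passed (adjusted p = 0.00433). Its part in the 9-month results was tested only by adding this share to the fit, and the outcome is given where it ends the call of a member or of another named gene.

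The lung lining is guarded by proteins that kill microbes or starve them of iron, and by acute-phase proteins, whose production rises in inflammation and which the liver also sends into the blood. Neutrophils carry some of them ready-made: calprotectin is the complex of S100a8 and S100a9, Camp encodes cathelicidin, and Cd177 encodes a surface protein of neutrophils. Lcn2 (lipocalin-2) binds the iron carriers of bacteria and is made by epithelium as well as by neutrophils. Lyz2 (lysozyme) splits bacterial cell walls and is a product of macrophages and alveolar epithelium. Hp (haptoglobin) binds free haemoglobin, Lbp carries bacterial lipopolysaccharide to the receptor Cd14, and Pigr (the polymeric immunoglobulin receptor) ferries IgA across epithelium.

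Promoter sequences are shown for Lcn2 and Cd177, since these were the members with the largest silica effects in 3 of the 4 comparisons, all but RD at 9 months. They come from RefSeq, build GRCr8, and run from 250 bases before to 50 bases after the annotated start. Of the 10 genes, 7 had an entry. Capitals mark matches to 3 motifs searched on both strands: GGAANNNCC (the core of sites written for NF-kappaB), TTGCNNAA (for C/EBP) and TTCNNNGAA (for STAT). No matches overlapped in these genes. Both genes lie on the minus strand, Lcn2 at chr3:36081731-36082030 and Cd177 at chr1:89488394-89488693.
Lcn2: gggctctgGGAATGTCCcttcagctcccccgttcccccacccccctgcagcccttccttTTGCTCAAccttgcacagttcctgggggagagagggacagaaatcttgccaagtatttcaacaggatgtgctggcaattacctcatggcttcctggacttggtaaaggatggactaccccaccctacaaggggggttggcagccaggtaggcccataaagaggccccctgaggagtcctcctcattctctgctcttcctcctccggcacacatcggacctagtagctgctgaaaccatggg
Cd177: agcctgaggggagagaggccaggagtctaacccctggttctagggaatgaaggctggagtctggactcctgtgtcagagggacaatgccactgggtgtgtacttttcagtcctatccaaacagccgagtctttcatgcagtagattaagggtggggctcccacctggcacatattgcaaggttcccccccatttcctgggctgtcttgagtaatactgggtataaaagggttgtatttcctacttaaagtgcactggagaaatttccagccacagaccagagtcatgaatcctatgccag
Lcn2 held a GGAANNNCC match from -242 and a TTGCNNAA match from -191 relative to the start, and Cd177 held no match in this window. The other matches among the 7 entries were in Lyz2, a TTGCNNAA match from -203 and a GGAANNNCC match from -103. Over all 33469 promoters of the table, 18.3% held GGAANNNCC, 10.6% held TTGCNNAA and 8.87% held TTCNNNGAA. A match is a run of letters and says nothing of what binds there.

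Silica raised nearly all of these genes on both diets and at both times, and lowered none. By edgeR's quasi-likelihood test, with Benjamini-Hochberg adjustment over all genes tested and a call at adjusted p below 0.05, 8 of the 10 were higher with silica on HFD at 3 months, where 9.23% of all genes tested were called higher. On RD at 3 months 10 of 10 were higher, against 10.2% of all genes. At 9 months 9 of 10 were higher on HFD, against 26.7% of all genes, and 9 of 10 on RD, against 24.5%. In the other direction 0 members were called, where 8.19% of all genes on HFD and 6.6% on RD at 3 months, and 24.9% on HFD and 20.6% on RD at 9 months, were lower. The genes not called were Camp and Cd14 on HFD at 3 months and Camp on both diets at 9 months. The median log2 fold change of the 10 genes lay at 1.12 on HFD and 1.33 on RD at 3 months, and at 1.41 on HFD and 1.51 on RD at 9 months, with the median of all genes between -0.01 and 0.00. By CPM every silica rat lay above every air rat of its diet for 8 of the 10 genes on HFD at 3 months (7.33% of all genes did so), for 10 on RD at 3 months (8.89%), for 9 on HFD at 9 months (16.7%) and for 7 on RD at 9 months (13.7%). In whole lung, more cells of a type and more RNA per cell cannot be told apart.

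**Figure D1:**
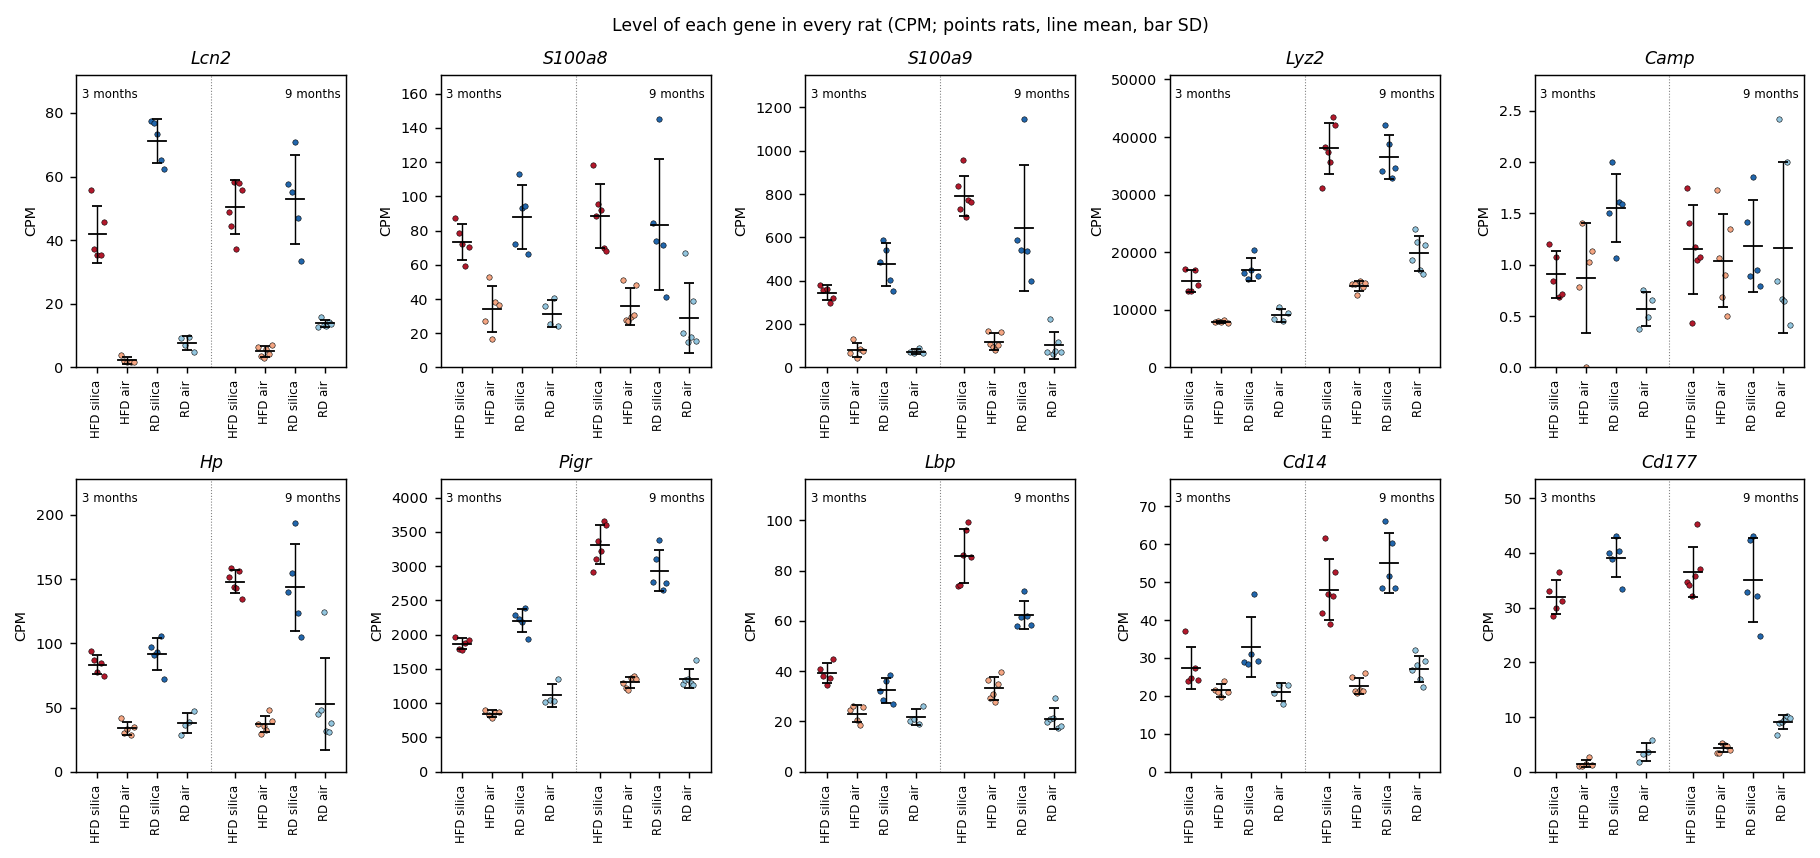
Level of each of the 10 genes in CPM (linear axes) in every rat, with the mean (line) and SD (bar) of each group, 3 months left of the dotted line and 9 months right of it. Silica rats stand above the air rats of the same diet and time, with overlap for Camp in all but RD at 3 months, for Cd14 on HFD at 3 months, and for S100a8 and Hp on RD at 9 months.

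Lcn2, the lipocalin gene, and Cd177, known as a surface gene of neutrophils, had low air levels and the largest silica effects at 3 months and on HFD at 9 months. On RD at 9 months that of S100a9 was larger. At 3 months Lcn2 stood at 55.7, 37.1, 35.2, 35.4 and 45.8 CPM in the 5 rats on HFD with silica, against 4.04, 2.04, 1.59, 1.76 and 1.62 CPM in the 5 on HFD in air. On RD it stood at 77.6, 77.0, 73.3, 65.1 and 62.5 CPM with silica, against 9.14, 7.21, 9.72 and 4.91 CPM in air. All 4 groups were apart from each other, with no overlap in any of these comparisons. At 9 months the lowest, median and highest levels were 37.1, 52.3 and 58.3 CPM on HFD with silica and 2.88, 5.04 and 7.21 CPM on HFD in air. On RD the 5 silica rats had 57.8, 55.0, 70.8, 46.9 and 33.4 CPM, and the 6 air rats ran from 12.8 to 16.0 CPM with a median of 13.6. So the silica groups of the diets overlapped at 9 months, while the air groups did not.

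The silica effect on Lcn2, as a log2 fold change, was 4.18 ± 0.21 (SE, adjusted p = 5.8e-12) on HFD and 3.20 ± 0.18 (adjusted p = 3.8e-11) on RD at 3 months. At 9 months it was 3.37 ± 0.18 on HFD (adjusted p = 6.3e-14) and 1.94 ± 0.16 on RD (adjusted p = 5.0e-10). The log2 fold change of Cd177 was 4.39 ± 0.19 on HFD (adjusted p = 2.2e-13) and 3.40 ± 0.17 on RD (adjusted p = 7.9e-12) at 3 months, and 3.07 ± 0.14 on HFD (adjusted p = 5.3e-15) and 1.96 ± 0.13 on RD (adjusted p = 1.2e-11) at 9 months.

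Cd177 levels at 3 months were 33.0, 28.5, 30.0, 36.6 and 31.3 CPM on HFD with silica, against 1.04, 1.10, 1.41, 2.65 and 1.30 CPM on HFD in air. On RD they were 39.9, 38.9, 43.0, 40.4 and 33.4 CPM with silica, against 1.87, 3.30, 3.63 and 5.73 CPM in air. The HFD air rats rest on 7 to 18 counts each. At 9 months Cd177 ran from 32.2 to 45.4 CPM on HFD with silica (median 35.2), and from 3.46 to 5.21 CPM on HFD in air (median 4.34). On RD it was 32.8, 42.4, 43.1, 32.1 and 24.8 CPM with silica and 6.74 to 10.2 CPM in air (median 9.30). As for Lcn2, the diets overlapped with silica and stood apart in air at 9 months.

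**Figure D2:**
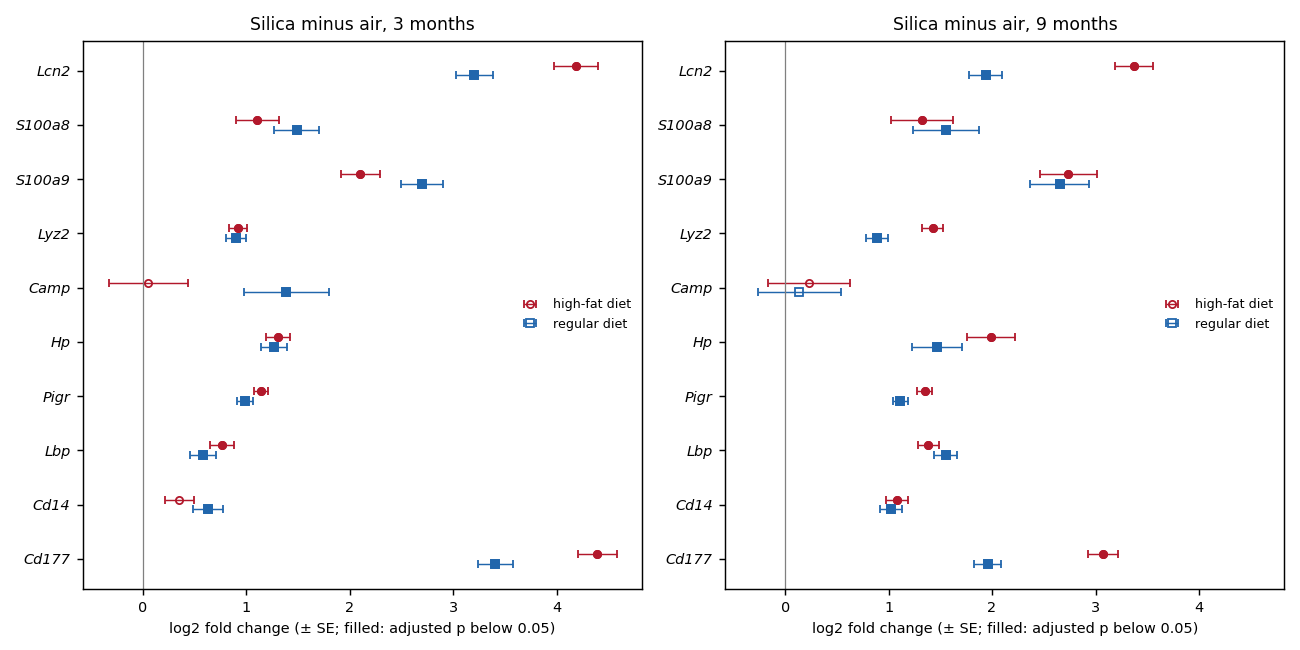
Log2 fold change of silica over air (points, with SE bars) for each of the 10 genes on the high-fat diet (red) and the regular diet (blue), at 3 months (left) and 9 months (right); filled points have an adjusted p below 0.05. Lcn2 and Cd177 have the largest values on HFD at both times, at 4.18 and 4.39 and at 3.37 and 3.07, each above its RD value.

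In air, the high-fat diet went with less Lcn2 and Cd177. At 3 months 3 of the 10 genes were called lower on HFD than on RD in air and 0 higher, where 1.30% of all genes tested were called lower and 1.65% higher. On the log2 scale these were Lcn2, at -1.75 ± 0.31 (SE, adjusted p = 0.0066), Pigr, at -0.40 ± 0.08 (adjusted p = 0.012), and Cd177, at -1.29 ± 0.31 (adjusted p = 0.030). Lcn2 and Pigr were lower on HFD with no overlap between the diets, as were 4.48% of all genes, whereas rat 57 on HFD had more Cd177 (2.65 CPM) than rat 38 on RD (1.87 CPM). The Cd177 call at 3 months was lost without any one of rats 40, 41 or 42 on RD or 50, 52 or 58 on HFD, with adjusted p of 0.051 to 0.14, when the groups compared were fitted alone (adjusted p = 0.051), and once the share of ribosomal RNA entered the fit (adjusted p = 0.080).

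With silica at 3 months Lcn2 was the 1 member called between the diets, lower on HFD at -0.76 ± 0.12 on the log2 scale (adjusted p = 0.0028), where 0.407% of all genes were called lower. It averaged 41.8 ± 8.9 CPM on HFD and 71.1 ± 6.9 CPM on RD (SD, n = 5 each), with no overlap, as 1.25% of all genes were lower without overlap. Cd177 with silica was at -0.30 ± 0.11 (adjusted p = 0.23). The silica effects were larger on HFD by 0.98 ± 0.33 for Lcn2 and by 0.99 ± 0.33 for Cd177 on the log2 scale, and this difference was not called for either (adjusted p = 0.74 each). By edgeR's quasi-likelihood test 0 of the 10 genes and 0 of all 15234 had a called difference between the diets' silica effects at 3 months, a background of 0%. Before adjustment 4 of the 10 had p below 0.05 by this test, as had 990 of all 15234 genes. Of these 4, Lcn2 and Cd177 had larger silica effects on HFD, and S100a9 (-0.60) and Camp (-1.34) smaller ones. DESeq2 and limma voom called 0 of the 10 as well.

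At 9 months 4 of the 10 genes differed between the diets in air, 3 lower on HFD, where 7.07% of all genes were called lower, and 1 higher, where 8.16% were. Lcn2 was lower by -1.50 ± 0.20 on the log2 scale (adjusted p = 2.3e-05), Cd177 by -1.06 ± 0.17 (adjusted p = 1.2e-04) and Lyz2 by -0.48 ± 0.10 (adjusted p = 0.0022), none of which overlapped between the diets (2.79% of all genes were lower without overlap). Lbp was higher by 0.63 ± 0.11 (adjusted p = 4.6e-04), with 1 rat on RD inside the HFD range. With silica, 1 of the 10 was called: Lbp was higher on HFD by 0.46 ± 0.11 (adjusted p = 0.015), where 1.82% of all genes were called higher, and without overlap, as were 1.75% of all genes. None of these 5 calls held once the share of ribosomal RNA entered the fit. Lcn2 in air was then at -1.34 (adjusted p = 0.64), Lyz2 at -0.56 (adjusted p = 0.74), Cd177 at -0.51 (adjusted p = 0.85) and Lbp at 0.30 (adjusted p = 0.88), and Lbp with silica was at 0.20 (adjusted p = 1.00). This share lay between 4.62% and 7.19% in all HFD air rats and between 0.375% and 2.29% in all RD air rats. So within these groups diet and share cannot be told apart. With silica the share lay between 7.29% and 7.85% on HFD and between 2.60% and 5.35% on RD. At 9 months it thus overlapped neither between silica and air on a diet nor between the diets with silica.

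The silica effects of the diets were called different at 9 months for 2 of the 10 genes, both larger on HFD, where 0.55% of all genes were. Lcn2 differed by 1.43 ± 0.25 on the log2 scale (adjusted p = 0.0055) and Cd177 by 1.12 ± 0.20 (adjusted p = 0.0073). Both calls held under every alternative run, the ribosomal share included, with adjusted p up to 0.025 for Lcn2 and 0.027 for Cd177, and without any one rat. Lyz2 was at 0.54 ± 0.15 (adjusted p = 0.071). With DESeq2 (adjusted p = 0.0036), limma voom (0.014), the older edgeR setting legacy=TRUE (0.040) and no filter on low counts (0.031) the Lyz2 difference was called. The other 7 genes lay between -0.23 and 0.52, with adjusted p of 0.30 to 0.96.

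On the linear scale the mean gains of Lcn2 and Cd177 stood higher on RD at 3 months and higher on HFD at 9 months. The gain of Lcn2 with silica at 9 months, silica mean minus air mean, was 45.4 ± 3.6 CPM on HFD and 38.9 ± 6.2 CPM on RD (SE). At 3 months it was 39.6 ± 4.0 CPM on HFD and 63.3 ± 3.3 CPM on RD, so the diet with the larger fold had the smaller gain. For Cd177 the gain was 30.4 ± 1.4 CPM on HFD and 35.5 ± 1.8 CPM on RD at 3 months, and 32.2 ± 1.9 CPM on HFD and 26.0 ± 3.5 CPM on RD at 9 months. Gains were not compared by a test. The air level was 5.29% of the silica level on HFD and 10.9% on RD for Lcn2 at 3 months, and 9.96% on HFD and 26.3% on RD at 9 months.

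**Figure D3:**
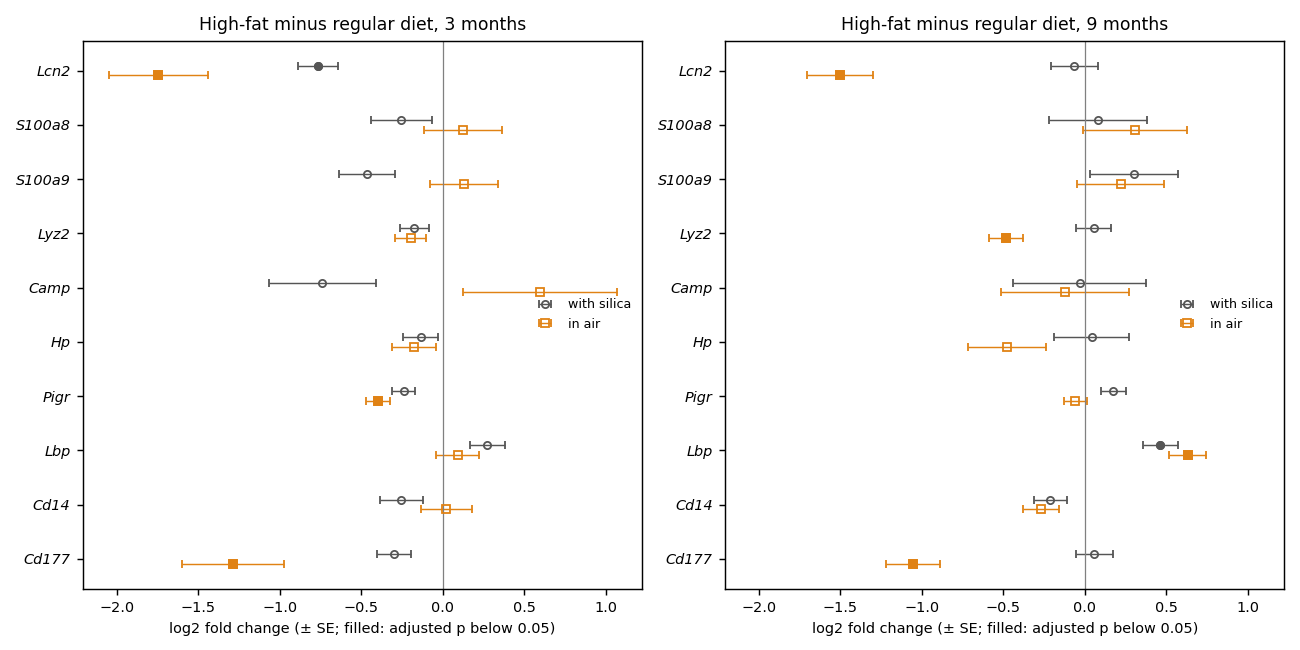
Log2 fold change of the high-fat over the regular diet (points, with SE bars) for each of the 10 genes with silica (grey circles) and in air (orange squares), at 3 months (left) and 9 months (right); filled points have an adjusted p below 0.05. Lcn2 and Cd177 lie far left of 0 in air at both times, and near 0 with silica at 9 months (-0.07 and 0.06).

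S100a8 and S100a9, the subunits of calprotectin, were raised by silica in all 4 comparisons, and S100a9 by more. At 3 months S100a9 had 382, 359, 362, 296 and 320.3 CPM on HFD with silica and 66.5, 130.2, 44.2, 84.3 and 76.1 CPM on HFD in air. On RD it had 488, 590.3, 543, 403 and 353 CPM with silica and 71.5, 64.7, 90.3 and 66.4 CPM in air. No silica rat fell within the air range. S100a8 had 87.6, 78.4, 72.2, 59.0 and 70.7 CPM on HFD with silica and 26.9, 53.1, 16.4, 38.1 and 36.6 CPM on HFD in air, and on RD it averaged 88.0 ± 18.7 CPM with silica (SD, n = 5) and 31.5 ± 8.0 CPM in air (n = 4). The log2 fold change of S100a9 was 2.10 ± 0.19 on HFD and 2.70 ± 0.21 on RD, and that of S100a8 was 1.11 ± 0.20 on HFD and 1.48 ± 0.22 on RD (edgeR adjusted p of at most 5.2e-04).

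At 9 months S100a9 ran from 693 to 956 CPM on HFD with silica (median 768) and from 79.5 to 168 CPM on HFD in air (median 105). On RD it had 589, 540.4, 1146, 538 and 401 CPM with silica, and from 60.9 to 222 CPM in air (median 74.1). A silica rat at 1146 CPM and an air rat at 222 CPM stood apart from their RD groups. S100a8 averaged 88.6 ± 18.7 CPM on HFD with silica and 35.8 ± 10.9 CPM on HFD in air (SD, n = 6 each). On RD it averaged 83.4 ± 38.2 CPM with silica (n = 5) and 29.0 ± 20.6 CPM in air (n = 6), and here the groups overlapped, with the lowest silica rat at 41.3 CPM and the highest air rat at 66.9 CPM. The log2 fold changes were 2.74 ± 0.28 on HFD and 2.66 ± 0.28 on RD for S100a9, and 1.32 ± 0.30 on HFD and 1.55 ± 0.32 on RD for S100a8 (edgeR adjusted p of at most 6.5e-04). Neither gene was called between the diets, in air or with silica, at either time.

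The count ratio of S100a8 to S100a9 within each library needs no scaling between libraries, though it is not per transcript length. It was 0.213 ± 0.013 on HFD with silica against 0.423 ± 0.043 on HFD in air, and 0.187 ± 0.031 on RD with silica against 0.427 ± 0.061 on RD in air at 3 months (mean ± SD). At 9 months it was 0.112 ± 0.023 on HFD with silica against 0.303 ± 0.038 on HFD in air, and 0.129 ± 0.016 on RD with silica against 0.270 ± 0.044 on RD in air. In none of the 4 comparisons did silica and air rats overlap. On the log2 scale the ratio was lower with silica by -0.99 ± 0.08 and -1.44 ± 0.14 (SE) on HFD at 3 and 9 months, and by -1.20 ± 0.15 and -1.06 ± 0.13 on RD. The exact permutation test, two-sided and adjusted over the 4 comparisons, gave p = 0.011 and 0.0087 on HFD and 0.016 and 0.0087 on RD at 3 and 9 months, each from the smallest p its group sizes allow.

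**Figure D4:**
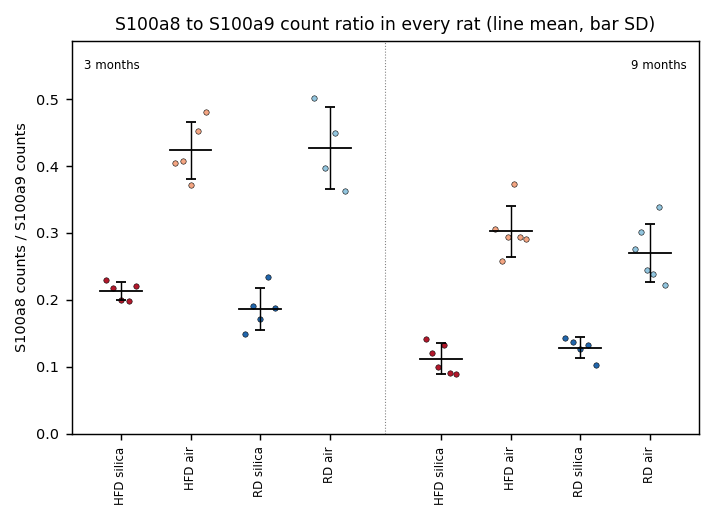
Ratio of S100a8 counts to S100a9 counts in every rat (points), with the mean (line) and SD (bar) of each group, 3 months left of the dotted line and 9 months right of it. Every silica group lies below both air groups of its time, with means of 0.112 to 0.213 against 0.270 to 0.427.

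Camp, the cathelicidin gene, was close to the limit of these libraries, with 0 to 15 counts per rat. It averaged 0.906 ± 0.228 CPM on HFD with silica and 0.871 ± 0.536 CPM on HFD in air at 3 months (SD, n = 5 each). On RD it averaged 1.56 ± 0.33 CPM with silica (n = 5) and 0.568 ± 0.168 CPM in air (n = 4), with a silica effect of 1.39 ± 0.41 on the log2 scale (edgeR adjusted p = 0.023). The RD call was lost without rat 38 or rat 41 (adjusted p of 0.066 and 0.069) and under limma voom (0.076). All 4 groups averaged 1.04 to 1.18 CPM at 9 months, and neither silica effect was called, at 0.23 ± 0.40 on HFD and 0.14 ± 0.40 on RD.

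Neutrophil markers were read beside these genes, since S100a8, S100a9, Camp and Cd177 are known from those cells. The summed level of 16 markers averaged 143 CPM (124.4 to 151 by rat) on HFD with silica, 119.4 CPM (87.5 to 161) on HFD in air, 155 CPM (132.9 to 162) on RD with silica and 105 CPM (94.8 to 111.8) on RD in air at 3 months. At 9 months it averaged 255 CPM (195 to 288) on HFD with silica, 147 CPM (131 to 165) on HFD in air, 241 CPM (192 to 287) on RD with silica and 140.2 CPM (102 to 210) on RD in air. Of 10 markers tested at each time, 2 rose with silica on HFD and 5 on RD at 3 months, and 6 on HFD and 8 on RD at 9 months, and 0 fell. Trem1, an activating receptor of neutrophils and monocytes, rose by 1.16 on HFD and 1.13 on RD at 3 months and by 1.82 on HFD and 1.26 on RD at 9 months on the log2 scale. The granule genes Mpo, Ctsg and Ltf had no count in any rat of 2, 6 and 3 of the 8 groups, in that order. Between the diets in air 0 of 10 markers were called at 3 months and 1 at 9 months, Cxcr1, a receptor for neutrophil-attracting chemokines, lower on HFD by -1.04 ± 0.11 (adjusted p = 1.5e-06). With the ribosomal share in the fit Cxcr1 was at -0.90 (adjusted p = 0.60), and 4 markers in place of 8 rose with silica on RD at 9 months. The part of neutrophil number in the silica results was not tested.

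Lyz2, the lysozyme gene, was the member with the most counts. It averaged 14983 ± 1918 CPM on HFD with silica and 7945 ± 190.4 CPM on HFD in air (SD, n = 5 each), and 16947 ± 1996 CPM on RD with silica (n = 5) and 9076 ± 1131 CPM on RD in air (n = 4) at 3 months. Lyz2 at 9 months averaged 38020.4 ± 4425 CPM on HFD with silica and 14178 ± 877 CPM on HFD in air (n = 6 each), and 36552 ± 3823 CPM on RD with silica (n = 5) and 19835 ± 3052 CPM on RD in air (n = 6). Silica and air rats did not overlap in any of these comparisons. The silica effect was 0.92 ± 0.09 on HFD and 0.90 ± 0.10 on RD at 3 months, and 1.43 ± 0.10 on HFD and 0.89 ± 0.11 on RD at 9 months on the log2 scale (edgeR adjusted p of at most 8.6e-07). Lyc2, a close copy of Lyz2, rose by 0.89 on HFD and 0.84 on RD at 3 months and was not called at 9 months. How the authors' counting treated reads that match both genes is not known here. Of the alveolar macrophage markers, 5 of 9 tested rose and 1 fell on each diet at 3 months. At 9 months 9 of 10 rose and 1 fell on HFD, and 8 rose and 1 fell on RD. Cd68, a lysosomal protein of macrophages, rose by 1.21 on each diet at 3 months, and by 2.26 on HFD and 1.68 on RD at 9 months. In air, 6 of these 10 markers were lower on HFD at 9 months and 3 of 9 at 3 months, and with the ribosomal share in the fit 0 at 9 months and 2 at 3 months. Of 9 alveolar type 2 cell markers, 7 rose and 0 fell on each diet at 3 months. At 9 months 7 of them rose and 1 fell on HFD, and 6 rose and 1 fell on RD. The part of either cell type in the Lyz2 levels was not tested.

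Lbp and Cd14, which take lipopolysaccharide to the Toll-like receptor Tlr4, had larger silica effects at 9 than at 3 months. Lbp averaged 39.2 ± 3.9 CPM on HFD with silica and 23.1 ± 3.4 CPM on HFD in air (SD, n = 5 each), and 32.5 ± 5.0 CPM on RD with silica (n = 5) and 21.6 ± 3.2 CPM on RD in air (n = 4) at 3 months. Lbp at 9 months averaged 85.9 ± 10.7 CPM on HFD with silica and 33.2 ± 4.6 CPM on HFD in air (n = 6 each), and 62.3 ± 5.6 CPM on RD with silica (n = 5) and 21.2 ± 4.3 CPM on RD in air (n = 6). The 9-month HFD silica group was above every other group, with 74.0 CPM in its lowest rat and 71.7 CPM in the highest rat of RD with silica. The silica effect on Lbp was 1.38 ± 0.10 on HFD and 1.55 ± 0.11 on RD at 9 months, and 0.76 ± 0.11 on HFD and 0.58 ± 0.13 on RD at 3 months on the log2 scale (edgeR adjusted p of at most 0.0029). Set against 3 months, the 9-month silica effect on Lbp was called larger on both diets, by 0.62 ± 0.16 on HFD (adjusted p = 0.0086) and 0.96 ± 0.18 on RD (adjusted p = 6.9e-04), and the RD call was lost with the ribosomal share in the fit (0.74, adjusted p = 0.059).

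Cd14 had 37.1, 23.8, 24.7, 27.3 and 24.3 CPM on HFD with silica at 3 months, against 21.5, 21.0, 19.6, 24.0 and 21.1 CPM on HFD in air. These groups overlapped, and the effect of 0.35 ± 0.14 on the log2 scale was not called (adjusted p = 0.093). On RD it had 29.1, 28.4, 30.9, 46.8 and 29.2 CPM with silica against 20.7, 23.0, 17.8 and 22.7 CPM in air, an effect of 0.63 ± 0.15 (adjusted p = 0.0054). By 9 months Cd14 averaged 48.0 ± 8.1 CPM on HFD with silica and 22.6 ± 2.2 CPM on HFD in air (SD, n = 6 each), and 55.0 ± 8.0 CPM on RD with silica (n = 5) and 27.1 ± 3.5 CPM on RD in air (n = 6). The effects were 1.08 ± 0.11 on HFD and 1.02 ± 0.11 on RD (adjusted p of at most 2.1e-08). Its 9-month effect was called larger than its 3-month effect on HFD, by 0.73 ± 0.18 (adjusted p = 0.0060), and not on RD, at 0.39 ± 0.19 (adjusted p = 0.21). Time, age and table of counts are 1 factor here.

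Of 17 other genes of lipopolysaccharide recognition and its signalling, 3 rose with silica on each diet at 3 months. At 9 months 12 rose and 0 fell on HFD, and 11 rose and 1 fell on RD. Tlr2, a receptor for bacterial lipoproteins, rose by 0.66 on HFD and 0.72 on RD at 3 months and by 0.87 on HFD and 0.78 on RD at 9 months on the log2 scale. Myd88, the adaptor of these receptors, rose by 0.64 on HFD and 0.61 on RD at 9 months. Tlr4, the partner of Cd14, was lower on HFD than on RD at 9 months, by -0.32 ± 0.08 with silica (edgeR adjusted p = 0.023) and by -0.29 ± 0.07 in air (adjusted p = 0.0088). Neither Tlr4 call held with the ribosomal share in the fit, at -0.24 with silica (adjusted p = 1.00) and -0.19 in air (adjusted p = 0.91). The medians of the 17 genes for silica were 0.17 on HFD and 0.18 on RD at 3 months and 0.56 on HFD and 0.37 on RD at 9 months.

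Hp, which binds free haemoglobin, rose with silica in all 4 comparisons. It averaged 83.5 ± 7.6 CPM on HFD with silica and 33.7 ± 5.1 CPM on HFD in air (SD, n = 5 each), and 91.9 ± 12.3 CPM on RD with silica (n = 5) and 38.0 ± 7.6 CPM on RD in air (n = 4) at 3 months. At 9 months it averaged 148 ± 9.1 CPM on HFD with silica and 37.3 ± 6.5 CPM on HFD in air (n = 6 each), and 143 ± 34 CPM on RD with silica (n = 5) and 52.8 ± 35.5 CPM on RD in air (n = 6). On RD in air 1 rat had 124.02 CPM where the other 5 had 31.2 to 47.7 CPM, and it alone overlapped the silica rats of its diet. The silica effect on Hp was 1.30 ± 0.12 on HFD and 1.26 ± 0.12 on RD at 3 months, and 1.99 ± 0.24 on HFD and 1.47 ± 0.24 on RD at 9 months on the log2 scale (edgeR adjusted p of at most 1.6e-05). Hp was not called between the diets in any comparison.

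Hp is also a liver product, so hepatocyte markers were read beside it. Of 6 tested at 3 months and 7 at 9 months, 0 were called with silica on either diet. The median log2 fold change of these markers was -1.05 on HFD and -0.30 on RD at 3 months. At 9 months it was -1.36 on HFD and -0.81 on RD. Their summed level ran from 22.3 CPM in 1 rat on HFD with silica at 3 months to 1565 CPM in 1 rat on RD in air at 9 months.

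Pigr, the epithelial carrier of IgA, had 1965, 1797, 1774, 1875 and 1929.8 CPM on HFD with silica at 3 months, against 901, 830, 781, 868 and 865 CPM on HFD in air. On RD it had 2287, 2229, 2187, 2392 and 1942 CPM with silica, against 1022, 1051, 1026 and 1359 CPM in air. The lowest RD air rat stood above the highest HFD air rat, the diet difference that was called above. Pigr at 9 months averaged 3314 ± 285 CPM on HFD with silica and 1304 ± 82.4 CPM on HFD in air (SD, n = 6 each), and 2933 ± 299 CPM on RD with silica (n = 5) and 1358 ± 137.3 CPM on RD in air (n = 6), and the diets overlapped in air. The silica effect was 1.14 ± 0.07 on HFD and 0.98 ± 0.08 on RD at 3 months, and 1.35 ± 0.07 on HFD and 1.11 ± 0.07 on RD at 9 months on the log2 scale (edgeR adjusted p of at most 1.0e-08). Of the secretory genes of the airway, 0 of 7 tested on HFD and 1 of 7 on RD rose at 3 months, and at 9 months 1 rose and 2 fell on HFD and 1 rose and 1 fell on RD. Of 9 alveolar type 2 cell markers, 7 rose on each diet at 3 months, and 7 rose and 1 fell on HFD and 6 rose and 1 fell on RD at 9 months. Their part in the Pigr levels was not tested.

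From 3 months to 9 months after exposure the silica effect changed in both directions. On HFD it was called larger at 9 months for Lyz2 (0.51 ± 0.14 on the log2 scale, adjusted p = 0.012), Lbp and Cd14, 3 of the 10 genes where 6.54% of all genes were, and smaller for Cd177 (-1.32 ± 0.30, adjusted p = 0.0031), where 4.12% of all genes were. On RD it was called larger for Lbp, where 3.71% of all genes were, and smaller for Lcn2 (-1.27 ± 0.27, adjusted p = 0.0029) and Cd177 (-1.45 ± 0.25, adjusted p = 2.4e-04), where 3.07% were. Mean air levels of Lcn2 and Cd177 were higher at 9 than at 3 months, and with silica the rats of the times overlapped on each diet. Levels were not tested between the times. Lcn2 in air averaged 5.02 CPM at 9 months and 2.21 CPM at 3 months on HFD, and 13.9 CPM at 9 months and 7.75 CPM at 3 months on RD. With silica on RD it averaged 52.8 CPM at 9 months and 71.1 CPM at 3 months. Cd177 in air averaged 4.30 CPM at 9 months and 1.499 CPM at 3 months on HFD, and 9.07 CPM at 9 months and 3.63 CPM at 3 months on RD. With silica it averaged 36.5 CPM at 9 months and 31.9 CPM at 3 months on HFD, and 35.1 CPM at 9 months and 39.1 CPM at 3 months on RD. Once the share of ribosomal RNA entered the fit, the RD call of Lcn2 was lost as well (-1.11, adjusted p = 0.082) and that of Cd177 held.

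Other antimicrobial genes were also higher with silica where they were called. Of 12 tested at 3 months 9 rose on HFD and 7 on RD, and of 13 tested at 9 months 10 rose on HFD and 9 on RD, with 0 lower in each. The medians of these genes were 0.82 on HFD and 0.61 on RD at 3 months and 1.18 on HFD and 1.09 on RD at 9 months on the log2 scale. Chi3l1, a chitinase-like protein, rose by 1.92 on HFD and 1.77 on RD at 3 months and by 2.61 on HFD and 2.33 on RD at 9 months. Surfactant protein A (Sftpa1), a collectin that coats microbes, rose by 0.87 on HFD and 0.77 on RD at 3 months and by 1.42 on HFD and 1.00 on RD at 9 months. Between the diets in air 1 was lower on HFD at each time, Chi3l1 at 3 months (-0.51 ± 0.09, edgeR adjusted p = 0.0061) and Slc11a1, a metal transporter of phagosomes, at 9 months (-0.50 ± 0.11, adjusted p = 0.0040), which was lost with the ribosomal share in the fit (-0.36, adjusted p = 0.87).

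Other acute-phase genes were more mixed, with 5 of 18 higher on each diet at 3 months, and 8 of 19 on HFD and 6 of 19 on RD at 9 months, and 0 lower. At 9 months the count on RD lies near the 24.5% of all genes called higher there. The medians of these genes were 0.090 on HFD and 0.19 on RD at 3 months and 0.26 on HFD and 0.24 on RD at 9 months on the log2 scale. Complement C3 rose by 2.35 on HFD and 1.91 on RD at 3 months and by 2.80 on HFD and 2.11 on RD at 9 months on the log2 scale. In air C3 was lower on HFD, by -0.71 ± 0.09 at 3 months (edgeR adjusted p = 4.9e-04) and by -0.63 ± 0.11 at 9 months (adjusted p = 2.5e-04), and the difference of its silica effects was called at 9 months (0.69 ± 0.15, adjusted p = 0.026). With the ribosomal share in the fit C3 was at -0.27 in air at 9 months (adjusted p = 0.90), and the difference of its silica effects at 0.62 (adjusted p = 0.063). Ptx3, a soluble pattern receptor, rose by 1.95 on HFD and 1.65 on RD at 3 months and by 2.68 on HFD and 1.98 on RD at 9 months. With silica at 9 months it was higher on HFD than on RD, by 0.79 ± 0.16 (adjusted p = 0.0078), and with the ribosomal share in the fit by 0.57, not called (adjusted p = 1.00).

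A further list held inducing cytokines, their receptors and regulators, some of which limit induction. Of 17 tested, 4 rose and 1 fell on HFD and 7 rose and 0 fell on RD at 3 months. At 9 months 10 rose and 2 fell on HFD, and 8 rose and 2 fell on RD. Their medians were 0.065 on HFD and 0.31 on RD at 3 months and 0.35 on HFD and 0.21 on RD at 9 months on the log2 scale. Zc3h12a, an RNase that limits inflammatory transcripts, rose by 1.05 on HFD and 1.08 on RD at 3 months and by 1.36 on HFD and 1.12 on RD at 9 months. In air at 3 months 2 of the 17 were higher on HFD and 0 lower, and with the ribosomal share in the fit 0 were called. In air at 9 months 4 of the 17 were lower on HFD and 0 higher. Among the 4 were the transcription factors Cebpd (-0.88 ± 0.11, adjusted p = 8.7e-06) and Cebpb (-0.52 ± 0.11, adjusted p = 0.0017) by edgeR's quasi-likelihood test. With the ribosomal share in the fit 0 of these 4 calls held, with Cebpd at -1.09 (adjusted p = 0.57) and Cebpb at -0.94 (adjusted p = 0.60). Of 10 receptors and partners of the members, some of them also in other lists, 2 rose and 3 fell on HFD at 3 months. On RD 4 rose and 3 fell. At 9 months 4 rose and 3 fell on HFD, and 3 rose and 4 fell on RD. Of all genes 26.7% were called higher and 24.9% lower on HFD then, and 24.5% higher and 20.6% lower on RD. Among the receptors and partners Hmox1, which degrades the haem of haemoglobin, rose by 1.26 on HFD and 1.20 on RD at 3 months. At 9 months it rose by 2.04 on HFD and 1.90 on RD. Cd163, the receptor for haptoglobin bound to haemoglobin, fell in all 4 comparisons, at -0.94 ± 0.18 on HFD and -0.65 ± 0.18 on RD at 3 months and at -1.32 ± 0.16 on HFD and -1.18 ± 0.15 on RD at 9 months.

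Within groups the 10 genes did not vary as 1 block. Over the 42 rats, each taken as its deviation from its group mean of log2 CPM, 45 pairs of genes were correlated, with 100000 permutations within groups and adjustment over the 45 pairs. Pearson's r passed for 8 pairs and Spearman's rho for 12. The calprotectin genes went together (r = 0.92, Spearman's rho = 0.86, adjusted p of 1.5e-04 and 2.2e-04, from the smallest p that the permutations can give), and each went with Camp (S100a8 r = 0.74, rho = 0.67, and S100a9 r = 0.68, rho = 0.63, with adjusted p of at most 0.0019). Lyz2 went with Cd14 (r = 0.73, rho = 0.75, adjusted p of at most 2.2e-04) and with Pigr (r = 0.57, rho = 0.65, adjusted p of at most 0.0050). Pigr and Cd177 had r = 0.51 and rho = 0.48 (adjusted p of 0.033 and 0.020). Lcn2 went with S100a9 (r = 0.46, rho = 0.50) and S100a8 (r = 0.44, rho = 0.48), with adjusted p of at most 0.033. The 4 pairs that passed by rho alone were Hp with Pigr (rho = 0.49, r = 0.34), Pigr with Lbp (rho = 0.51, r = 0.42), Hp with Lbp (rho = 0.46, r = 0.26) and Lyz2 with Hp (rho = 0.42, r = 0.39), with adjusted p of 0.011 to 0.0496 for rho and 0.074 to 0.46 for r. Without the 2 rats farthest from the median of the first gene, r was 0.88 for S100a8 with S100a9, 0.70 and 0.62 with Camp, 0.67 and 0.60 for Lyz2 with Cd14 and Pigr, 0.40 for Pigr with Cd177, and 0.54 and 0.52 for Lcn2 with S100a9 and S100a8.

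Lcn2 and Cd177, both higher in every silica group than in any air group, did not go together within groups (r = -0.16, rho = 0.03, permutation p of 0.46 and 0.88). Nor did S100a9 and Lyz2 (r = 0.09, rho = -0.03, permutation p of 0.65 and 0.86). Cd177 did not go with the other members known from neutrophils either. Its r was 0.01 with S100a8, 0.04 with S100a9 and 0.04 with Camp (permutation p of 0.94, 0.80 and 0.83). Such an r shows no lack of relation, since the spread within groups includes counting error, which is largest for Camp and for Cd177 in air.

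**Figure D5:**
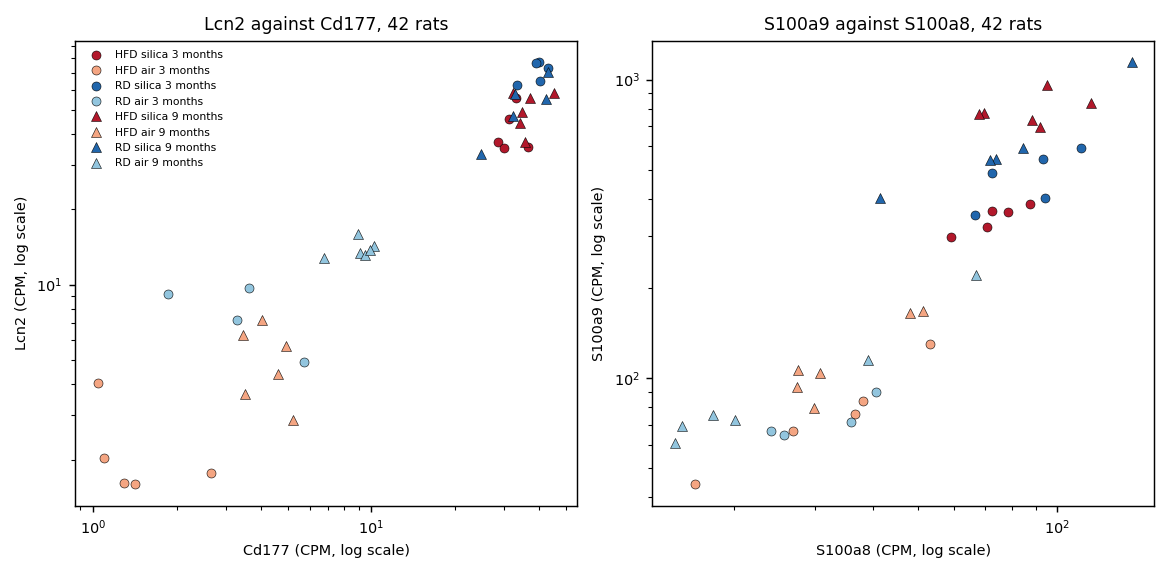
Levels in CPM on log axes in the 42 rats: Lcn2 against Cd177 (left) and S100a9 against S100a8 (right), coloured by diet and exposure, 3 months as circles and 9 months as triangles. Lcn2 and Cd177 are both high in the silica groups and low in the air groups but form loose clouds within a group, while S100a9 rises with S100a8 within groups, with the silica rats above the air rats at a like S100a8 level.

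For each gene the 2 others with the most similar log2 CPM over the 42 rats, among those with a mean log2 CPM of at least 1, were listed as a description. Much of each r is the shared silica difference, so the r of deviations from group means is given as well. Noxo1, an organiser of an NADPH oxidase, and Tmprss4, a membrane serine protease, were nearest to both Lcn2 (r = 0.98 and 0.95, within groups 0.52 and 0.26) and Cd177 (r = 0.96 and 0.96, within groups 0.08 and 0.32). Il1b, the cytokine interleukin-1 beta, and Il1r2, its decoy receptor, were nearest to S100a8 (r = 0.88 and 0.86, within groups 0.73 and 0.67). Tmem45b and Chi3l1 were nearest to S100a9 (r = 0.96 and 0.95). Fcer1g, an Fc receptor chain, and Cd68 were nearest to Lyz2 (r = 0.97 each), and Prcp and Gm2a, both lysosomal proteins, to Cd14 (r = 0.96 each). C4bpa and C3, both of the complement system, were nearest to Hp (r = 0.95 each, within groups 0.65 and 0.73), Met and Fetub to Pigr (r = 0.99 and 0.98), and Atp6v0c and Prelid1 to Lbp (r = 0.96 and 0.94). For Camp the nearest reached only r = 0.62 (Cklf) and 0.61 (Glipr1).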

How the data were processed

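Read counts per gene were deposited by the authors as 2 tables, 1 per time after exposure, not normalized. Per the submitters' processing notes, the build is Rnor_6.0 and the tools named are HTSeq 0.6.1, TopHat2 2.0.9, bcl2fastq 2.19, SAMtools 0.1.19, Bowtie2 2.2.9 and Trimmomatic 0.35. The libraries are strand-specific per the labels' protocols. The annotation and the strand setting of the counting are not given in the sources used here, so overlapping and antisense genes may share reads. Each library is 1 rat, and rats named by a number carry their tag from the labels.

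From the counts, edgeR 4.0.16 in R 4.3.3 was run with TMM, filterByExpr and the quasi-likelihood test (glmQLFit, legacy=FALSE), with 1 coefficient per group. Each table was fitted with its 4 groups, and differences between times in 1 fit of all 8 groups (15759 genes). p-values were adjusted by Benjamini-Hochberg over all genes of the fit, and a call is an adjusted p below 0.05. The SE is the log2 fold change divided by the square root of F. CPM and log2 CPM (prior count 2) use TMM sizes of the 42 libraries together. Exact permutation tests used scipy 1.17.1. Alternatives were DESeq2 1.42.0, limma 3.58.1 voom, RLE size factors, no filter, legacy=TRUE, fewer groups in the fit, the ribosomal RNA share as a covariate, and leaving out each rat. The code was tested on simulated data.

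The members, the other gene lists (178 genes, 169 of them in both tables) and the tests were chosen with earlier results of these data known. Beyond the 10 members, up to 3 genes per list with the smallest p in a comparison are named, and the 2 genes most like each member. Lyc2, Cd163 on RD at 3 months and the markers at 0 are named outside this rule, after their values were seen. Sftpa1 stands in 2 lists, as do Ltf, Bpifa1, Fgb, Serpina1, Tlr4, Ly96, Prtn3, Ager and Pecam1. Jchain and Igha, which are not in both tables, do so as well.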

Additional observations from a re-analysis of the deposited data

Results flagged for a closer look

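Each set of values was of 1 gene or of the S100a8 to S100a9 ratio in a group of 4 to 6 rats. In 12 of 88 sets 1 rat's gap to the nearest other passed Dixon's 95% limit, and that rat was the highest of its set. Normal values would pass in about 1 in 20 independent sets. CPM need not be normal and the sets share rats, so the count cannot be judged by that rate. In air on HFD at 3 months, rat 50 had 4.04 CPM of Lcn2 (others 1.59 to 2.04), and rat 57 had 2.65 CPM of Cd177 (others 1.04 to 1.41). In air on RD, Pigr was high in rat 42 at 3 months, at 1359 CPM (others 1022 to 1051), and in 1 rat at 9 months, at 1631.5 CPM (others 1268 to 1347). Also on RD in air at 9 months, 1 rat had 222 CPM of S100a9 (others 60.9 to 115.2), another had 124.02 CPM of Hp (others 31.2 to 47.7) and another had 29.3 CPM of Lbp (others 17.4 to 21.6).

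With silica, 1 rat on RD at 9 months stood apart in S100a9, at 1146 CPM (others 401 to 589), and in Lbp, at 71.7 CPM (others 58.2 to 61.9). Cd14 was high at 3 months in rat 62 on HFD, at 37.1 CPM (others 23.8 to 27.3), and in rat 46 on RD, at 46.8 CPM (others 28.4 to 30.9). On HFD at 9 months 1 rat had 45.4 CPM of Cd177 (others 32.2 to 37.0).

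The silica effects of HFD and RD at 9 months differed for Lcn2, by 1.43 on the log2 scale, and for Cd177, by 1.12. Between 9 and 3 months the silica effect on HFD differed by 0.51 for Lyz2, 0.62 for Lbp, 0.73 for Cd14 and -1.32 for Cd177. On RD it differed by -1.27 for Lcn2, 0.96 for Lbp and -1.45 for Cd177. These were tested differences (edgeR's quasi-likelihood test), with adjusted p of at most 0.012.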

How the results depend on the processing

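No paired analysis was possible because each rat carries its own tag number, shared by no other group. Of the members' 54 called fold changes, 384 of 394 values under other settings and 655 of 663 with 1 rat left out kept their direction and call, and none reversed. Counts of members called moved by more than 1.5 times only under the ribosomal RNA covariate: to 2 (Lcn2 and Pigr) in place of 1 for HFD against RD with silica at 3 months, to 0 in place of 4 in air at 9 months, to 0 in place of 1 with silica at 9 months, and to 1 in place of 3 for 9 against 3 months on RD. In the other comparisons and settings, and with 1 rat left out, they moved by at most 1. At 9 months this covariate left 1 gene of all called between the diets in air, where 2327 were called without it, and it ended every call of a listed gene in that comparison. The S100a8 to S100a9 log2 count ratio with 1 rat left out stayed between -1.03 and -0.94 on HFD and -1.28 and -1.12 on RD at 3 months, and between -1.52 and -1.38 on HFD and -1.12 and -0.99 on RD at 9 months. Of 66 fold changes that were not called, 9 setting values became called, among them Pigr between the diets with silica at 3 months under the covariate (-0.28, adjusted p = 0.047), Lcn2 for 9 against 3 months on HFD under DESeq2 (-0.85, adjusted p = 0.043), and Hp for the same difference on HFD under limma voom (0.70, adjusted p = 0.044) and on RD without 2 rats in air at 9 months (0.69, adjusted p = 0.031). Leaving out these 2 rats, which stood apart in S100a9 and in Hp, was chosen after seeing the data. Few counts limit Camp, with 0 to 15 per rat. The causes of these changes were not tested.

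Values that changed sign were all of comparisons not called. Under the covariate at 3 months they were Camp with silica on HFD (-0.057), Cd14 between the diets in air (-0.021) and Hp for the diets' silica effects (-0.0072). Under it at 9 months they were Camp with silica on RD (-0.24), S100a8 (-0.51), S100a9 (-0.67) and Hp (0.22) between the diets in air, and Lcn2 (0.065), S100a8 (-0.61), S100a9 (-0.46) and Lyz2 (-0.0062) between the diets with silica. For 9 against 3 months it turned Camp on HFD (-0.051) and S100a8 on RD (-0.34). Under limma voom Camp turned between the diets in air at 9 months (0.13), as did S100a9 (-0.094) and Camp (-0.29) for the diets' silica effects at 9 months, and Camp on HFD (-0.21) and S100a9 on RD (0.13) for 9 against 3 months. Without these 2 rats, Camp (0.18) and Hp (0.041) turned between the diets in air at 9 months, as did S100a9 (-0.23), Camp (-0.21) and Cd14 (-0.018) for the diets' silica effects, and S100a9 (0.23) and Lyz2 (0.070) for 9 against 3 months on RD.

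Leaving out 1 rat gave a range across 0 for Camp with silica on HFD at 3 months (-0.21 to 0.28). Between the diets in air at 3 months it did so for S100a8 (-0.096 to 0.28), S100a9 (-0.12 to 0.27) and Cd14 (-0.049 to 0.068), and in air at 9 months for Pigr (-0.079 to 0.00090). With silica at 9 months it did so for Lcn2 (-0.19 to 0.064), S100a8 (-0.083 to 0.38), Camp (-0.12 to 0.10), Hp (-0.049 to 0.17) and Cd177 (-0.036 to 0.14). For the diets' silica effects the ranges were -0.057 to 0.093 for Lyz2 and -0.083 to 0.15 for Hp at 3 months, and -0.67 to 0.070 for S100a8, -0.30 to 0.39 for S100a9, -0.0034 to 0.24 for Camp and -0.014 to 0.13 for Cd14 at 9 months. For 9 against 3 months they were -0.052 to 0.45 for Camp on HFD, and on RD -0.21 to 0.49 for S100a8, -0.35 to 0.31 for S100a9, -0.12 to 0.027 for Lyz2 and -0.012 to 0.16 for Pigr.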
